A study of Mus musculus with 9 samples.

Results

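The embryonic mouse cornea at E14.5 was compared with the periocular neural crest (pNC) at E10.5, the migratory mesenchyme beside the early eye that later gives rise to the corneal stroma and endothelium. Samples were chosen by the stage in their titles, which gave 6 of the 9 samples of the series: E10.5 pNC replicates 1, 2 and 3 and E14.5 cornea replicates 1, 2 and 3. Each sample is a pool of tissue from several untreated, wild-type C57BL/6 embryos, so the spread between replicates is a spread between pools. At E10.5 surface ectoderm, lens vesicle and optic cup were removed after dispase treatment. E14.5 corneas were cut away from the mesenchyme around them and kept their epithelium. Stage and tissue make-up therefore change together and cannot be told apart. An epithelial gene at E14.5 is set against tissue from which the surface ectoderm was removed. How much of it remained in each pNC pool was not tested.

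Neural crest cells leave the neural tube, migrate through the embryo and form skeleton, connective tissue, nerves and glia of the head. Around the eye they enter the space between the lens and the surface ectoderm, where they become keratocytes, the cells of the stroma, and the corneal endothelium, a monolayer that pumps fluid out of the stroma. Keratocytes lay down thin collagen fibrils whose spacing is set by small leucine-rich proteoglycans, while the surface ectoderm becomes the stratified corneal epithelium. The finished cornea is transparent, without blood vessels and densely innervated.

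Messenger RNA was sequenced, and each sample held 8773677 to 9069023 expected counts, the estimated number of reads per gene. Levels are given in FPKM (fragments of a gene scaled to the length of its transcript and to the depth of the sample), and values of a stage stand in the order of replicates 1, 2 and 3. No pair of replicates was a repeat of the same library, because their counts differed by 2.98 to 27.4 times sampling noise (chi-square per degree of freedom). E14.5 replicate 1 stood apart, at 27.4 and 27.2 times sampling noise from replicates 2 and 3, which differed from each other by 9.33. It was the highest of the 3 corneas for 67.9% of the genes called higher at E14.5, and still for 60.4% of those called higher when it was left out of the test. E10.5 replicate 3 differed from replicates 1 and 2 by 10.6 and 8.73, against 2.98 between these. E14.5 replicate 3 listed Xist, the RNA that coats the inactive X chromosome of female cells, at 0.20 FPKM, against 104.7 and 69.9 in the other corneas and 71.3, 116.7 and 72.2 at E10.5.

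Between E10.5 and E14.5, 2014 of 14771 tested genes (13.6%) rose and 1177 (7.97%) fell. Counts within the gene lists below are to be read against these shares. A gene was called when edgeR's quasi-likelihood test gave a Benjamini-Hochberg adjusted p under 0.05 and the level differed at least by a log2 fold change of 1. A further 5137 genes passed the adjusted p with a smaller fold, and the median log2 fold change of all tested genes was 0.015. In bulk tissue, fewer cells of a type and less RNA per cell cannot be told apart, which holds for every gene named here. In FPKM, every cornea lay above every pNC sample for 31.4% of the tested genes and below for 29.6%.

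Genes that rose took 2.25%, 2.20% and 1.96% of the summed FPKM at E10.5 and 12.9%, 8.95% and 10.4% at E14.5. Genes that fell took 8.37%, 8.46% and 7.90% at E10.5 and 2.46%, 3.35% and 3.30% at E14.5. Of the genes that rose, 1067 had a mean of at least 5 FPKM at E14.5 and 73 of at least 100. Of those that fell, 603 and 58 reached these levels at E10.5. With E14.5 replicate 1 left out, 1864 genes were called higher (12.4% of 15002 tested) and 1121 lower (7.47%), with a median log2 fold change over all genes of 0.0061. Of the original calls, 1748 higher (86.8%) and 986 lower (83.8%) were called in both fits, and no gene was called in opposite directions.

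**Figure D1:**
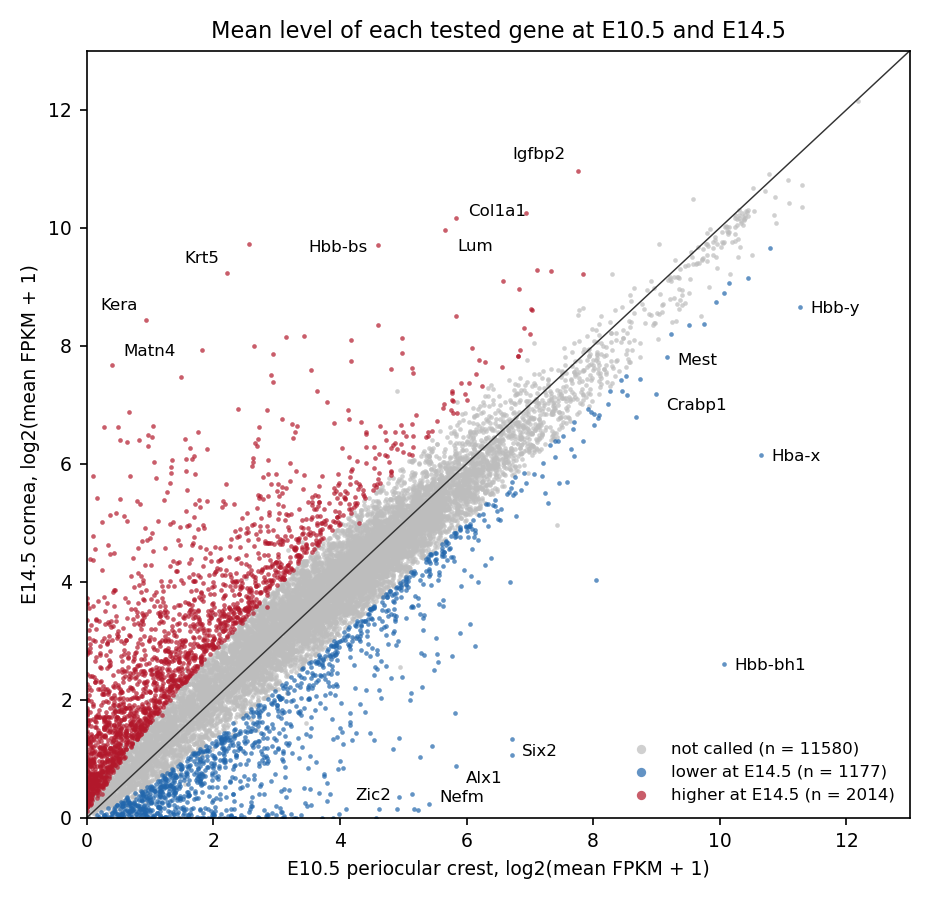
Mean level of each tested gene at E10.5 (x axis) and at E14.5 (y axis), both as log2(mean FPKM + 1), with genes called higher in red (n = 2014), lower in blue (n = 1177) and all others in grey. Gains and losses both reach the most abundant transcripts, with Igfbp2 and Col1a1 above the diagonal and the embryonic globins Hbb-y, Hba-x and Hbb-bh1 below it.

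The steepest gain among genes with a mean of at least 3 counts at E10.5 and 5 FPKM at E14.5 was Matn4 (gene identifier 17183, chr2:164389393-164405160 in GRCm38), which encodes the matrix adaptor protein matrilin-4. Its values were 0.22, 0.35 and 0.41 FPKM at E10.5 and 190.3, 161 and 261 at E14.5. All 3 corneas lay far above the pNC samples and close to each other (log2 fold change 9.23, SE 0.34, edgeR adjusted p = 2.57e-08). Keratocan, the proteoglycan of keratocytes (Kera, 16545, chr10:97606962-97613688), was measured at 0.69, 0.96 and 1.11 FPKM at E10.5 and 803, 83.1 and 151 at E14.5 (log2 fold change 8.52, SE 0.94, edgeR adjusted p = 3.20e-05). Replicate 1 was the highest cornea by a wide margin, and the fold was 368 with it and 127 without it. The lowest cornea was still far above the highest pNC sample.

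The steepest losses included Tubb3 (22152, chr8:123411553-123422015), which encodes the tubulin of neurons, and Six2 (20472, chr17:85662736-85688254), a homeobox factor of undifferentiated mesenchyme. Tubb3 was measured at 117, 124 and 71.7 FPKM at E10.5 and 0.46, 1.88 and 0.9 at E14.5, 96.9 times lower in the cornea (log2 fold change -6.60, SE 0.33, edgeR adjusted p = 1.71e-07), and 152 times lower without E14.5 replicate 2, its highest cornea. Six2 was measured at 122, 98.1 and 91.9 FPKM at E10.5 and 1.15, 2.35 and 1.04 at E14.5, 69.5 times lower (log2 fold change -6.12, SE 0.27, edgeR adjusted p = 8.83e-08). For neither gene did the stages come near each other.

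The promoters of these 4 genes are shown as examples of steep changes, Matn4 and Kera of gains in the cornea and Tubb3 and Six2 of losses. Steeper losses such as Nefm and Zic2 had no promoter listed, and globins were set aside. For Matn4, 2 promoters were listed and only the first was used. Each line holds 250 bases before and 50 after the start listed for the promoter, on the strand of the gene, from RefSeq on GRCm38.p6: Matn4 at chr2:164405111-164405410 (minus strand), Kera at chr10:97606955-97607254 (plus), Tubb3 at chr8:123411303-123411602 (plus) and Six2 at chr17:85688205-85688504 (minus). For Kera this start lies inside the gene interval given above, so nearly all of its window falls within that interval. For the other genes it is the edge of the interval. Capitals mark the CCAAT box, searched as CCAAT on both strands, so that ATTGG marks one on the opposite strand.
Matn4: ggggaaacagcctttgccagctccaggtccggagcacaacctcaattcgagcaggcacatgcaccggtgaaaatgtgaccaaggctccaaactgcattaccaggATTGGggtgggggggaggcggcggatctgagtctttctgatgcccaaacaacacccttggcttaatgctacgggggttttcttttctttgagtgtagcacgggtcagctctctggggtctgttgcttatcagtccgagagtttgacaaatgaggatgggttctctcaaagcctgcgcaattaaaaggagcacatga
Kera: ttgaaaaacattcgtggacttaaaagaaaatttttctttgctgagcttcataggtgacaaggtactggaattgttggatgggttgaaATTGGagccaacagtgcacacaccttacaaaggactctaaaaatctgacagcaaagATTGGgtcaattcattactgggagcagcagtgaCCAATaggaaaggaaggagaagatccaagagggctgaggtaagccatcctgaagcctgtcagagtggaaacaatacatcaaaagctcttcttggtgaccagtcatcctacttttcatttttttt
Tubb3: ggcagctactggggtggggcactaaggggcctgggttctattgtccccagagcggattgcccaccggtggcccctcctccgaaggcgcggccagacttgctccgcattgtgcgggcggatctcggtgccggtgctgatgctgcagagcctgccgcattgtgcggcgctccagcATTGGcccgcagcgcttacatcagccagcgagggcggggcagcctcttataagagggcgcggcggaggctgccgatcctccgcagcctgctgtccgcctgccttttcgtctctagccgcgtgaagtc
Six2: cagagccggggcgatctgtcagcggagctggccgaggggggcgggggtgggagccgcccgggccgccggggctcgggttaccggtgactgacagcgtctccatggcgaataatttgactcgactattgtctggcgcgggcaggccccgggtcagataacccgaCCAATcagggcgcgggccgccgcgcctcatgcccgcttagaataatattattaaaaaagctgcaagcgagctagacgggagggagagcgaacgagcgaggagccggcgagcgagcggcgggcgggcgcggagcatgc

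The Kera window held 3 CCAAT boxes, at −163, −107 and −74 from the start listed for its promoter. The other promoters held 1 each, at −146 in Matn4, −77 in Tubb3 and −87 in Six2. Of all 27025 promoters of the same length in the table, 37.9% held at least 1. None of the 4 held the letters TATAAA on the gene's strand or, on either strand, an AP-1 site (TGACTCA), an AP-2 site (gccnnnggc), a TEAD site (GGAATG), an E2F site (tttggcgc) or an E-box (CACGTG). The shares of all promoters with these letters were 8.88%, 5.17%, 16.51%, 14.6%, 0.537% and 7.24%. The promoters differed in CpG, the dinucleotide that DNA methylation acts on. The ratio of observed to expected CpG was 0.0809 in Kera and 0.438 in Matn4, 0.765 in Tubb3 and 1.13 in Six2, against a median of 0.389 over the table. A match or its absence is a description of these letters in this window.

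The largest gains in transcript level included genes of the collagen matrix. Igfbp2, which binds insulin-like growth factors, had the largest difference of mean FPKM among the genes that rose, with 192, 227 and 229 FPKM at E10.5 and 2793, 1340.3 and 1834 at E14.5 (log2 fold change 3.19, SE 0.23, edgeR adjusted p = 1.98e-06). Both chains of type I collagen, the main collagen of the stroma, stood next to it. Col1a1 was measured at 71.9, 60.6 and 34.98 FPKM at E10.5 and 1548, 604 and 1271 at E14.5 (log2 fold change 4.34, SE 0.39, edgeR adjusted p = 7.44e-06), and Col1a2 at 155, 119.8 and 90.6 FPKM at E10.5 and 1394, 795 and 1447 at E14.5 (log2 fold change 3.31, SE 0.28, edgeR adjusted p = 5.86e-06). E14.5 replicate 2 was the lowest cornea for all 3 genes, and E10.5 replicate 3 the lowest pNC sample for both collagens. Sparc, which encodes a collagen-binding matrix protein, rose from 161 ± 31.4 to 614 ± 208 FPKM (SD, n = 3), and Col3a1, a fibrillar collagen of soft connective tissue, from 227 ± 32.2 to 593 ± 126 FPKM. S100a11 and Anxa2, which encode calcium-dependent proteins of the cell membrane and cortex, rose 4.44 and 5.75 times.

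Small leucine-rich proteoglycans, the small matrix proteins that bind collagen fibrils, were listed with all 17 genes, of which 14 passed the filter on low counts. Of these 8 rose and 1 fell (all tested genes 13.6% and 7.97%), the same counts as without E14.5 replicate 1, and their median log2 fold change was 3.09 (all genes 0.015). The summed level of the list went from 153, 146 and 153 FPKM to 4265, 1752 and 1974. Besides Kera, lumican (Lum) was measured at 54.02, 47.98 and 45.9 FPKM at E10.5 and 1470.4, 750.1 and 779 at E14.5, and decorin (Dcn) at 4.74, 5.04 and 5.04 FPKM at E10.5 and 1445, 507 and 572 at E14.5. Both were highest in E14.5 replicate 1, and both stages were well apart. Lum rose 20.04 times (log2 fold change 4.32, SE 0.25, edgeR adjusted p = 4.05e-07). Dcn rose 168 times (log2 fold change 7.40, SE 0.43, edgeR adjusted p = 4.05e-07), or 109 times without E14.5 replicate 1. Bgn, Aspn, Fmod, Ogn and Podn also rose, while Epyc, the proteoglycan of growing cartilage, fell.

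Of 20 fibrillar and fibril-associated collagens, 12 rose and 3 fell, with a median log2 fold change of 1.93. Without E14.5 replicate 1 the counts were 12 and 4. The steepest were Col14a1 and Col12a1, whose products sit on the surface of fibrils. Col14a1 was measured at 0.51, 0.67 and 0.57 FPKM at E10.5 and 186, 71.1 and 92.3 at E14.5 (log2 fold change 7.61, SE 0.41, edgeR adjusted p = 2.77e-07), and Col12a1 at 7.05, 7.28 and 5.64 FPKM at E10.5 and 152, 152 and 197 at E14.5 (log2 fold change 4.64, SE 0.20, edgeR adjusted p = 7.47e-08). Col12a1 was even across the corneas, whereas Col14a1 was highest in replicate 1. Col5a1, Col5a2, Col11a1, Col24a1, Col27a1, Col9a3 and Col16a1 rose as well. The 3 that fell were Col2a1 and Col9a1, collagens of cartilage, and Col22a1.

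Some of the genes that fold, modify and export collagen rose with it. Of 28 members, 9 rose and 5 fell, the median log2 fold change was 0.65, and 19 were higher at an adjusted p under 0.05 with any fold, as were 28.9% of all tested genes. With E14.5 replicate 1 left out, 7 rose and 5 fell, and without E14.5 replicate 2, 3 fell. The steepest was Creb3l1, a transcription factor of the secretory pathway, with 1.61, 1.83 and 1.59 FPKM at E10.5 and 24.6, 12.1 and 20.1 at E14.5 (log2 fold change 3.48, SE 0.26, edgeR adjusted p = 2.52e-06). Loxl1, a cross-linking oxidase, rose 3.47 times (log2 fold change 1.80, SE 0.23, edgeR adjusted p = 9.88e-05). The most abundant members stayed under the fold minimum, among them the collagen chaperone Serpinh1 with 526 ± 44.3 FPKM at E10.5 and 843 ± 203 at E14.5 (SD, n = 3) and the prolyl hydroxylase subunit P4hb with 251 ± 16.4 FPKM at E10.5 and 312 ± 37.3 at E14.5. Plod2, Loxl4, P3h2, Pcolce2 and Adamts3 fell.

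Basement membrane genes, which encode the sheet under epithelia and around vessels, changed in part. Of 22 tested members 11 rose and 2 fell (1 fell without E14.5 replicate 1, E10.5 replicate 1 or E10.5 replicate 2), with a median log2 fold change of 1.06. The gains included 3 chains of minor type IV collagens (Col4a4, Col4a5 and Col4a6, the first not called without E14.5 replicate 1), while the main chain Col4a1 was measured at 126, 108 and 66.6 FPKM at E10.5 and 80.4, 91.1 and 112 at E14.5, with overlapping stages (log2 fold change -0.094, SE 0.23, edgeR adjusted p = 0.745). Lamb3, a laminin chain of epithelial basement membranes, rose from under 1 FPKM and was measured at 0.19, 0.05 and 0.25 FPKM at E10.5 and 11.6, 3.95 and 4.06 at E14.5. Its fold was 38.5 with all samples and 23.8 without E14.5 replicate 1, which was the highest cornea. Agrn, a heparan sulfate proteoglycan, rose from 53.6 ± 5.70 to 149 ± 9.70 FPKM (SD, n = 3).

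Most genes of the epithelium rose. Of 35 corneal epithelial markers, all of which were tested, 32 rose and none fell, with a median log2 fold change of 3.37. Without E14.5 replicate 1 these were 30 and 0 with a median of 2.84. Krt5, the keratin of basal cells, was measured at 2.74, 4.13 and 4.11 FPKM at E10.5 and 1042, 343 and 416 at E14.5 (log2 fold change 7.34, SE 0.47, edgeR adjusted p = 7.92e-07). Krt15 was measured at 1.69, 2.25 and 3.64 FPKM at E10.5 and 489, 98.7 and 137 at E14.5 (log2 fold change 6.55, SE 0.66, edgeR adjusted p = 1.79e-05). E14.5 replicate 1 was far above the other corneas for both keratins, and without it their folds were 103 and 46.5 in place of 162 and 94.03. The order of the corneas was the reverse for Dsc3, a desmosomal cadherin, with 0.19, 0.19 and 0.17 FPKM at E10.5 and 14.46, 42.99 and 36.7 at E14.5 (log2 fold change 7.41, SE 0.50, edgeR adjusted p = 1.09e-06), where replicate 1 was the lowest. Pax6, the homeobox factor that specifies the eye and the corneal epithelium, was measured at 8.63, 10.4 and 3.44 FPKM at E10.5 and 146, 88.8 and 88.8 at E14.5 and rose 14 times (log2 fold change 3.81, SE 0.34, edgeR adjusted p = 7.95e-06). Krt18, Jup and Cldn7 were the 3 members not called.

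The cornified list, genes of keratinizing differentiation such as that of skin, had 13 of its 15 genes listed and 11 tested, of which 6 rose and none fell (5 and 0 without E14.5 replicate 1). Its median log2 fold change was 3.38, or 3.35 with a member that was not listed at E10.5 set to its lower bound. The summed level of the list was 8.07, 7.95 and 9.89 FPKM at E10.5 and 219, 102 and 93.2 at E14.5. Little was thus present at E10.5 that could fall, so the count had little room to differ. Calml3, a calmodulin-like protein of stratified epithelia, was measured at 0.16, 0.62 and 0.56 FPKM at E10.5 and 118, 69.8 and 62.6 at E14.5 (log2 fold change 7.49, SE 0.38, edgeR adjusted p = 1.86e-07). Lypd3 was measured at 0.4, 0.94 and 1.65 FPKM at E10.5 and 50.05, 13.4 and 14.1 at E14.5, and loricrin (Lor), a protein of the cornified envelope, at 0.31, 0.68 and 0.13 FPKM at E10.5 and 19.03, 5.71 and 4.44 at E14.5. Both were highest in E14.5 replicate 1, and leaving it out took the fold from 25.4 to 13.7 for Lypd3 and from 25.1 to 13.2 for Lor. For Lor it was 41.96 without E10.5 replicate 2. Anxa8, an annexin of squamous epithelia, was measured at 0.06, 0.88 and 0.72 FPKM at E10.5 and 122, 59.9 and 62 at E14.5 (log2 fold change 7.17, SE 0.46, edgeR adjusted p = 8.12e-07).

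**Figure D2:**
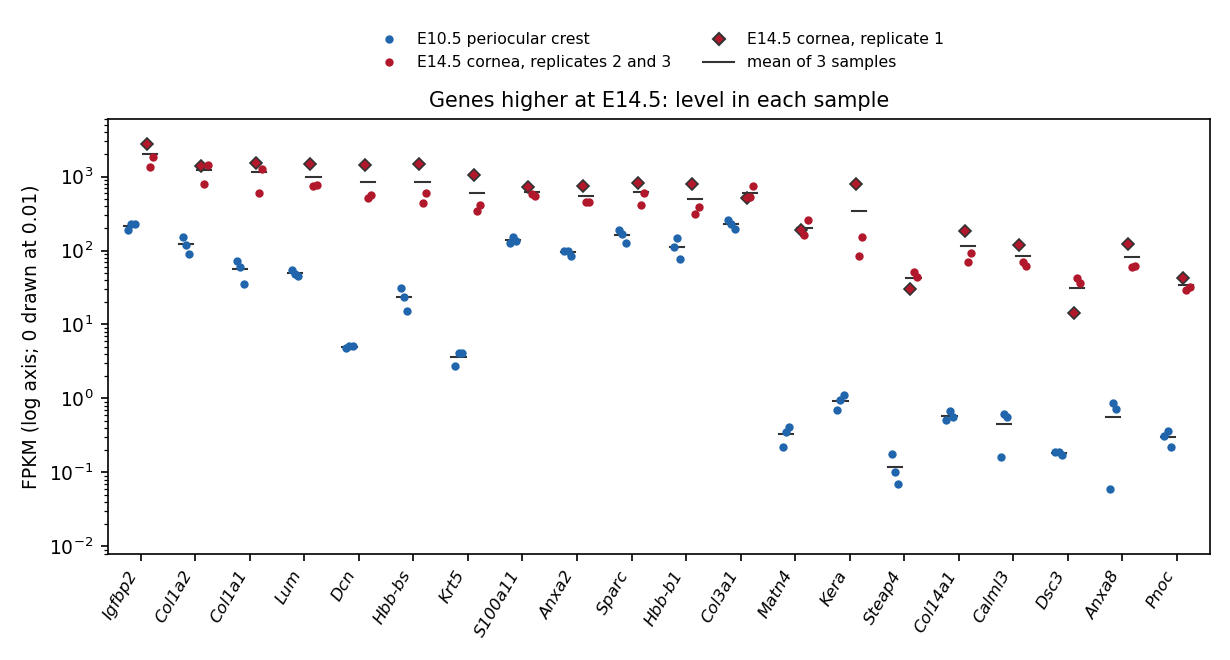
Level of the 20 genes named for the largest difference or steepest fold among those higher at E14.5, in FPKM on a log axis, with a point for each sample, a bar at the mean of 3 samples, E10.5 in blue, E14.5 in red and E14.5 replicate 1 as a diamond. By the choice of genes no stages overlap, and replicate 1 stands above the other corneas for Kera and Krt5 but below them for Dsc3.

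Some markers of the corneal endothelium rose. Of 9 members 5 rose and none fell, and the median log2 fold change was 1.15. The counts were the same without E14.5 replicate 1, but the 5 members were not all the same. Type VIII collagen, which builds the network of Descemet's membrane under the endothelium, rose in all corneas. Col8a1 was measured at 1.01, 0.95 and 0.92 FPKM at E10.5 and 90.8, 83.9 and 90.5 at E14.5 (log2 fold change 6.50, SE 0.10, edgeR adjusted p = 8.70e-11) and Col8a2 at 14.3, 10.4 and 7.17 FPKM at E10.5 and 174, 176 and 227 at E14.5 (log2 fold change 4.17, SE 0.25, edgeR adjusted p = 5.18e-07). Aqp1, a water channel of keratocytes and endothelium, was measured at 1.85, 1.91 and 1.68 FPKM at E10.5 and 219, 132 and 176 at E14.5 (log2 fold change 6.58, SE 0.23, edgeR adjusted p = 2.29e-08). The solute carriers Slc4a11 and Slc4a4 rose too, Slc4a11 only with E14.5 replicate 1 in the test, and the 4 members not called included the cadherin Cdh2 and the junction protein Tjp1. Without E10.5 replicate 3 or E14.5 replicate 3, 1 member was called lower.

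The other steep gains were Steap4, a metalloreductase, with 0.18, 0.1 and 0.07 FPKM at E10.5 and 29.9, 52.05 and 44.03 at E14.5 (log2 fold change 8.41, SE 0.32, edgeR adjusted p = 3.43e-08), and Pnoc, the precursor of the neuropeptide nociceptin, with 0.31, 0.36 and 0.22 FPKM at E10.5 and 42.05, 28.9 and 31.8 at E14.5 (log2 fold change 6.81, SE 0.22, edgeR adjusted p = 1.46e-08). No cornea stood far from the others for either gene. Wnt signals, which pattern the eye surface, were gained on the side of ligands and of inhibitors. Of 19 Wnt ligands 18 were listed and 16 tested, and 11 rose and none fell, with a median log2 fold change of 2.73. With E14.5 replicate 1 left out, 10 of the 16 rose, and 1 ligand that had not passed the filter fell without E10.5 replicate 3 or with any 1 cornea left out. Wnt3a was measured at 0.04, 0.08 and 0.2 FPKM at E10.5 and 13.1, 7.18 and 7.36 at E14.5 (log2 fold change 6.35, SE 0.41, edgeR adjusted p = 7.83e-07), a fold of 81.6 that became 141 without E10.5 replicate 3. Wnt10a was measured at 0.17, 0.56 and 0.8 FPKM at E10.5 and 52.4, 22.1 and 25.9 at E14.5 (log2 fold change 6.00, SE 0.46, edgeR adjusted p = 2.70e-06). Wnt6 and Wnt4 were the most abundant ligands, with 7.22, 13.2 and 18.1 FPKM at E10.5 and 170.5, 104 and 120.5 at E14.5 for Wnt6 and 3.63, 5.90 and 7.20 FPKM at E10.5 and 131, 74.9 and 86.1 at E14.5 for Wnt4. Wnt7b rose 9.10 times.

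Of 9 tested secreted Wnt inhibitors 6 rose and 3 fell, with or without E14.5 replicate 1, with a median log2 fold change of 2.07. Dkk2, which blocks the Wnt co-receptors, was measured at 18.7, 18.2 and 14.1 FPKM at E10.5 and 238, 290.0 and 294 at E14.5 (log2 fold change 3.99, SE 0.16, edgeR adjusted p = 4.10e-08), and Dkk3 at 6.13, 6.04 and 3.46 FPKM at E10.5 and 67.8, 57.4 and 68.4 at E14.5 (log2 fold change 3.62, SE 0.18, edgeR adjusted p = 1.82e-07). Both were level across the corneas. Notum, an enzyme that inactivates Wnt proteins, rose from 0.537 ± 0.0907 to 7.09 ± 1.49 FPKM (SD, n = 3). The inhibitors of the secreted frizzled-related class went the opposite way: Sfrp1, Frzb and Sfrp2 fell. Sfrp2 was measured at 59.4, 58.8 and 32.4 FPKM at E10.5 and 27.3, 16.7 and 27.3 at E14.5 (log2 fold change -1.09, SE 0.24, edgeR adjusted p = 0.00296) and was no longer called without E10.5 replicate 1, E10.5 replicate 2 or E14.5 replicate 2. Guidance cues of the semaphorin and Slit families, which steer axons and crest cells, moved both ways. Of 23, 7 rose and 5 fell (all tested genes 13.6% and 7.97%), against 6 and 3 without E14.5 replicate 1. The median log2 fold change was 0.051. Sema5a was measured at 6.79, 6.01 and 6.14 FPKM at E10.5 and 64.03, 65.5 and 67.6 at E14.5 (log2 fold change 3.37, SE 0.11, edgeR adjusted p = 1.88e-08). Sema3c rose from 5.67 ± 1.02 to 43.1 ± 20.9 FPKM and Sema3f from 28.2 ± 2.84 to 91.5 ± 15.4 FPKM (SD, n = 3), while Sema3d, Sema3g, Sema5b, Sema6b and Slit1 fell, the first pair not without E14.5 replicate 1.

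Most transcription factors of the crest fell. Of 58 factors of the crest and the cranial mesenchyme 55 were tested, 40 fell and 6 rose, with a median log2 fold change of -2.87. Without E14.5 replicate 1 these were 40 and 7. The members that fell span the Alx, Zic, Ebf, Eya, Dlx, Msx and forkhead families and include Six2 and Six4. Zic2, a zinc finger factor of the early head, was measured at 16.1, 19.3 and 13.1 FPKM at E10.5 and 0.04, 0.11 and 0.19 at E14.5 (log2 fold change -7.10, SE 0.36, edgeR adjusted p = 1.82e-07). Alx1, needed for the midface and the region around the eye, was measured at 61.9, 43.4 and 62.5 FPKM at E10.5 and 0.14, 1.46 and 0.9 at E14.5 (log2 fold change -6.08, SE 0.38, edgeR adjusted p = 6.31e-07). The fold of Alx1 was 67.5, and 106 without E14.5 replicate 2. Tbx18, a T-box factor of mesenchyme, was measured at 8.07, 8.01 and 5.94 FPKM at E10.5 and 0.02, 0.25 and 0.1 at E14.5. It fell 60.3 times (log2 fold change -5.91, SE 0.38, edgeR adjusted p = 8.56e-07), or 117 times without E14.5 replicate 2.

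Ebf2, Barx1 and Pax7 were listed in every pNC sample and in no cornea. Ebf2 held 11.4, 13.01 and 12.1 FPKM at E10.5, Barx1 23.1, 22.4 and 22.8, and Pax7 11.1, 4.25 and 7.16. Against the floor of 3 counts per library, Ebf2 was at least 202-fold lower in the cornea, Barx1 at least 91.6-fold and Pax7 at least 96.1-fold. Ebf2 is a helix-loop-helix factor of mesenchyme, Barx1 a homeobox factor of the jaw and stomach mesenchyme, and Pax7 a paired factor of crest and muscle precursors. The factors that rose included Twist2, Tfap2a, Tfap2b, Lmx1b and Osr2. Twist2, a helix-loop-helix factor of mesenchyme, was measured at 29.9, 35.3 and 38.5 FPKM at E10.5 and 179, 159 and 216 at E14.5 (log2 fold change 2.41, SE 0.14, edgeR adjusted p = 4.80e-07). Twist1 was abundant at both stages, with 123, 117 and 157 FPKM at E10.5 and 145, 167 and 179 at E14.5, and was not called (log2 fold change 0.29, SE 0.14, edgeR adjusted p = 0.0963). The summed level of the list was 1298, 1306 and 1321 FPKM at E10.5 and 897, 1180.0 and 1300.0 at E14.5, with overlapping stages. Hox genes, which mark crest from the hindbrain and trunk, were not tested at all: 27 of 39 were listed in some sample, and the most abundant, Hoxb2, held 0.14, 0.2 and 0.07 FPKM at E10.5 and 0.42, 0.49 and 0.69 at E14.5.

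The oncofetal regulators, a set of embryonic RNA-binding proteins and chromatin factors that are silenced after development, fell as a group. Of 13 members 11 fell and none rose, with or without E14.5 replicate 1, and the median log2 fold change was -1.91. Lin28a, which blocks the maturation of let-7 microRNAs, was measured at 9.79, 12.2 and 10.04 FPKM at E10.5 and 0.23, 0.06 and 0.19 at E14.5 (log2 fold change -6.02, SE 0.29, edgeR adjusted p = 7.42e-07). Its relative Lin28b was measured at 11.8, 11.8 and 14.9 FPKM at E10.5 and 0.15, 0.62 and 0.76 at E14.5 (log2 fold change -4.66, SE 0.32, edgeR adjusted p = 1.31e-06). The chromatin protein Hmga2 was measured at 98.4, 97.8 and 111 FPKM at E10.5 and 7.18, 20.7 and 16.8 at E14.5 (log2 fold change -2.80, SE 0.30, edgeR adjusted p = 2.45e-05), and its relative Hmga1 at 406, 425 and 394 FPKM at E10.5 and 91.7, 115 and 121 at E14.5 (log2 fold change -1.91, SE 0.11, edgeR adjusted p = 5.21e-07). For the last 3 genes E14.5 replicate 1 was the lowest cornea, and no stages overlapped. Igf2bp2 fell 2.19 times, and Igf2bp3 and Plag1 were the members not called.

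**Figure D3:**
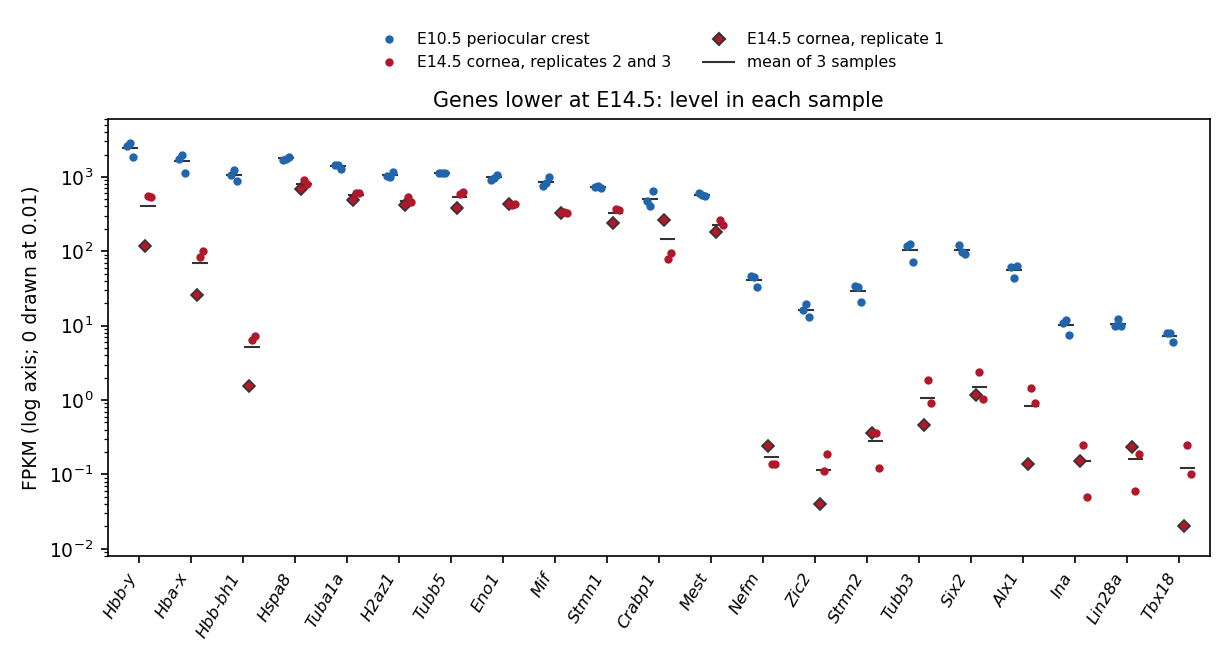
Level of the genes named for the largest difference or steepest fold among those lower at E14.5, in FPKM on a log axis, with a point for each sample, a bar at the mean of 3 samples, E10.5 in blue, E14.5 in red and E14.5 replicate 1 as a diamond. By the choice of genes no stages overlap, and the embryonic globins and Alx1 are lowest in replicate 1, where Hbb-y is at 117.3 FPKM against 550.4 and 537.8.

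The globins, products of red blood cells in the tissue, changed from embryonic to adult types. Their near-identical copies share reads, so values of single adult genes are uncertain. The embryonic Hbb-y was measured at 2592, 2893 and 1869.8 FPKM at E10.5 and 117, 550.4 and 538 at E14.5 (log2 fold change -2.62, SE 0.46, edgeR adjusted p = 0.00073), Hba-x at 1725, 1969 and 1141 FPKM at E10.5 and 25.9, 83.8 and 99.6 at E14.5 (log2 fold change -4.54, SE 0.43, edgeR adjusted p = 1.07e-05) and Hbb-bh1 at 1076, 1251 and 876 FPKM at E10.5 and 1.56, 6.43 and 7.30 at E14.5 (log2 fold change -7.71, SE 0.36, edgeR adjusted p = 1.26e-07). The adult Hbb-bs was measured at 31.1, 23.8 and 15.2 FPKM at E10.5 and 1460.3, 437 and 601 at E14.5 (log2 fold change 5.14, SE 0.51, edgeR adjusted p = 1.50e-05) and Hbb-b1 at 112, 149.6 and 76.9 FPKM at E10.5 and 791, 309 and 389.6 at E14.5 (log2 fold change 2.12, SE 0.43, edgeR adjusted p = 0.00176). With E14.5 replicate 1 left out, the fold of Hbb-bs was 22.2 in place of 35.2. Hba-a1, which is made by both embryonic and adult red cells, was measured at 1545, 1746 and 1142 FPKM at E10.5 and 2187, 1176 and 1561 at E14.5, with overlapping stages (log2 fold change 0.14, SE 0.28, edgeR adjusted p = 0.697).

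Summed over beta-like globins, embryonic genes held 96.2%, 96.0% and 96.8% of the FPKM at E10.5 and 5.01%, 42.7% and 35.5% at E14.5. E14.5 replicate 1 was thus far below the other corneas, on the side of the E16.5 corneas, where the share was 0.205%, 0.346% and 0.475%. Among alpha-like globins the embryonic share was 49.1%, 49.4% and 47.1% at E10.5 and 0.916%, 5.45% and 5.16% at E14.5. The part of such differences between pools in other results was not tested. Of 20 red blood cell genes 17 were listed, all 17 were tested, 2 rose and 12 fell (2 and 13 without E14.5 replicate 1), with a median log2 fold change of -1.88. The fallen members outside the globins included the membrane proteins Slc4a1 and Epb42 and the transcription factors Klf1 and Gata1.

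Neuronal transcripts were far lower in the cornea. Of 16 tested neuron and retina markers 11 fell and none rose (13 and 0 without E14.5 replicate 1), the median log2 fold change was -4.16, and 21 were listed. Their summed level was 325, 342 and 208 FPKM at E10.5 and 22.9, 17.7 and 20.5 at E14.5. Little was thus present in the corneas, and members passed the filter mainly by their levels at E10.5, so the count had little room to differ. The neurofilament subunit Nefm was measured at 45.9, 44.9 and 33.1 FPKM at E10.5 and 0.24, 0.14 and 0.14 at E14.5 (log2 fold change -7.87, SE 0.21, edgeR adjusted p = 5.75e-09), the steepest fall among genes with a mean of at least 3 counts in the cornea and 5 FPKM at E10.5. Its partner Nefl was measured at 37.4, 43.1 and 29.1 FPKM at E10.5 and 0.23, 0 and 0.06 at E14.5, 365 times lower (log2 fold change -8.51, SE 0.36, edgeR adjusted p = 7.32e-08), or 1038 times without E14.5 replicate 1. Stmn2, a tubulin regulator of growing axons, was measured at 34.4, 33.2 and 20.7 FPKM at E10.5 and 0.36, 0.36 and 0.12 at E14.5 (log2 fold change -6.70, SE 0.37, edgeR adjusted p = 3.33e-07), and the intermediate filament Ina at 10.8, 11.98 and 7.58 FPKM at E10.5 and 0.15, 0.25 and 0.05 at E14.5 (log2 fold change -6.04, SE 0.35, edgeR adjusted p = 4.05e-07). Neurod1, a helix-loop-helix factor of neurons, held 10.8, 10.46 and 5.53 FPKM at E10.5 and was listed in no cornea, at least 66.3-fold lower. Stmn3 was likewise at least 46.2-fold lower, from 16.52, 16.1 and 9.12 FPKM. E10.5 replicate 3 was the lowest pNC sample for each of these 6 genes.

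Markers of muscle, glia and cartilage were lower as well. Of 14 tested skeletal muscle markers (20 in the list) 11 fell and 1 rose, with or without E14.5 replicate 1. Their median log2 fold change was -4.48, or -3.98 with members listed in no cornea at their bound. The summed level of the muscle list was 48.6, 44.7 and 45.5 FPKM at E10.5 and 11.2, 10.6 and 10.8 at E14.5. Little was thus present in the corneas, so the count had little room to differ. Desmin (Des), the intermediate filament of muscle, was measured at 9.43, 10.1 and 9.92 FPKM at E10.5 and 0.16, 0.68 and 0.41 at E14.5 (log2 fold change -4.54, SE 0.30, edgeR adjusted p = 9.54e-07), and the cardiac actin Actc1, made by all embryonic muscle, at 6.07, 5.37 and 3.87 FPKM at E10.5 and 0.16, 0.08 and 0.21 at E14.5 (log2 fold change -4.88, SE 0.43, edgeR adjusted p = 6.44e-06). Tnnt1, a troponin of slow muscle, fell 2.37 times (log2 fold change -1.24, SE 0.38, edgeR adjusted p = 0.0169) and was not called without E10.5 replicate 3. Schwann and glial markers fell in 6 of 10 and rose in 1, also without E14.5 replicate 1, with a median log2 fold change of -1.35. Leaving out E10.5 replicate 2, E14.5 replicate 2 or E14.5 replicate 3 gave 2 that rose. Fabp7, a lipid-binding protein of early glia, was measured at 33.8, 37.6 and 30.3 FPKM at E10.5 and 4.02, 3.85 and 2.13 at E14.5 (log2 fold change -3.36, SE 0.23, edgeR adjusted p = 1.10e-06). The neurotrophin receptor Ngfr fell from 22.4 ± 2.83 to 4.89 ± 2.09 FPKM (SD, n = 3), while Pmp22, a myelin protein also made by fibroblasts, rose 2.27 times.

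Of 9 tested cartilage and bone markers (15 in the list) 6 fell and 2 rose, with or without E14.5 replicate 1, and the median log2 fold change was -1.66. The cartilage collagen Col2a1 was measured at 178, 159 and 115 FPKM at E10.5 and 44.5, 34.3 and 54.3 at E14.5 (log2 fold change -1.77, SE 0.24, edgeR adjusted p = 0.000129), and Col9a1 fell from 38.7 ± 2.89 to 14.7 ± 6.38 FPKM (SD, n = 3). The 2 that rose were Spp1, a secreted phosphoprotein of bone, with 1.90, 1.56 and 1.53 FPKM at E10.5 and 12.02, 23.9 and 15.8 at E14.5 (log2 fold change 3.34, SE 0.39, edgeR adjusted p = 5.06e-05), and Sox6, a factor of cartilage, with 1.96, 2.22 and 1.93 FPKM at E10.5 and 16.7, 8.64 and 8.95 at E14.5 (log2 fold change 2.48, SE 0.24, edgeR adjusted p = 1.19e-05). Vascular endothelial markers fell in 13 of 20 and rose in none, with a median log2 fold change of -1.24, and fell in 9 without E14.5 replicate 1. Their summed level was 421, 399.5 and 266 FPKM at E10.5 and 120.0, 179 and 183 at E14.5, so that replicate 1 was the lowest cornea. Emcn, a sialoprotein of capillaries and veins, was measured at 41.8, 41.9 and 32.9 FPKM at E10.5 and 5.30, 9.16 and 9.87 at E14.5 (log2 fold change -2.27, SE 0.27, edgeR adjusted p = 5.45e-05). Plvap, which spans the pores of capillaries, was measured at 46.2, 44.5 and 27.03 FPKM at E10.5 and 6.40, 11.1 and 11.9 at E14.5 (log2 fold change -2.01, SE 0.29, edgeR adjusted p = 0.000212), Tek, the angiopoietin receptor, at 9.44, 10.8 and 7.20 FPKM at E10.5 and 0.73, 1.94 and 2 at E14.5 (log2 fold change -2.56, SE 0.32, edgeR adjusted p = 8.36e-05), and Egfl7 fell 2.48 times. Kdr and Flt1, the receptors of vascular endothelial growth factor, were not called.

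Mural cell markers, which mark pericytes and smooth muscle, were split: of 8 tested 2 rose (Tagln and Myh11) and 2 fell (Rgs5 and Abcc9). The shares of all tested genes were 13.6% and 7.97%, and the median log2 fold change of the list was 0.31. Tagln was not called without E10.5 replicate 3, and 4 members fell without E14.5 replicate 1 or 2, where other members passed the filter. Pdgfrb was measured at 39.2, 35.5 and 25.2 FPKM at E10.5 and 21, 38.3 and 41.6 at E14.5 (log2 fold change 0.0051, SE 0.26, edgeR adjusted p = 0.99) and Notch3 at 38.1, 33.1 and 24.6 FPKM at E10.5 and 30.8, 30.7 and 34.9 at E14.5 (log2 fold change -0.0038, SE 0.15, edgeR adjusted p = 0.987), both with overlapping stages.

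Some of the largest losses in FPKM were small folds of abundant genes. Hspa8, a constitutive chaperone, was measured at 1711, 1734 and 1871 FPKM at E10.5 and 698, 899 and 814 at E14.5 (log2 fold change -1.16, SE 0.12, edgeR adjusted p = 1.66e-05), and the histone variant H2az1 at 1039, 999 and 1181 FPKM at E10.5 and 425, 537 and 465 at E14.5 (log2 fold change -1.19, SE 0.11, edgeR adjusted p = 8.48e-06). The tubulin Tuba1a was measured at 1444, 1457 and 1285 FPKM at E10.5 and 493, 599 and 612 at E14.5 (log2 fold change -1.31, SE 0.13, edgeR adjusted p = 1.78e-05). Mif, a cytokine-like enzyme, fell from 861 ± 136 to 331 ± 6.39 FPKM, and the imprinted gene Mest from 576 ± 22.7 to 223 ± 40.6 FPKM (SD, n = 3). The tubulin Tubb5 and the tubulin regulator Stmn1 fell in the test on all samples, with log2 fold changes of -1.09 and -1.17, and were no longer called without E14.5 replicate 1, where these were -0.89 and -0.99. For both, E14.5 replicate 1 was the lowest cornea, with 379.1 against 595.5 and 624.4 FPKM for Tubb5.

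Most cell cycle genes were lower at E14.5. Of 39 DNA replication genes, 38 were lower at an adjusted p under 0.05 with any fold (27.5% of all tested genes were), 18 of them past the fold minimum (7.97% of all), none rose, and the median log2 fold change was -0.89. Without E14.5 replicate 1, 12 fell. Rrm2, the ribonucleotide reductase subunit made in S phase, was measured at 148, 152 and 165 FPKM at E10.5 and 24.2, 47.5 and 46.1 at E14.5 (log2 fold change -1.995, SE 0.22, edgeR adjusted p = 2.89e-05). Pcna, the sliding clamp of DNA polymerase, was measured at 294, 295 and 314 FPKM at E10.5 and 106, 151 and 126 at E14.5 (log2 fold change -1.25, SE 0.12, edgeR adjusted p = 9.83e-06), and Mcm7, a subunit of the replicative helicase, at 140.0, 146 and 149 FPKM at E10.5 and 38.6, 64.3 and 60.99 at E14.5 (log2 fold change -1.42, SE 0.17, edgeR adjusted p = 5.28e-05). Of 39 mitosis genes 37 were lower at an adjusted p under 0.05 and 9 fell past the fold minimum, with a median log2 fold change of -0.87. The count of 9 depended on single corneas: it was 2 without E14.5 replicate 1, 19 without replicate 2 and 16 without replicate 3. Bub1, a spindle checkpoint kinase, fell from 41.7 ± 2.65 to 16.6 ± 4.23 FPKM, and Mybl2, a transcription factor of dividing cells, from 22.2 ± 0.778 to 8.76 ± 2.71 FPKM (SD, n = 3). Top2a, which untangles chromosomes, had a log2 fold change of -0.94 and was under the fold minimum. Of 6 tested cyclin-dependent kinase inhibitors, which stop the cycle, Cdkn2b and Cdkn2c rose, and Cdkn1b was level with 19.3 ± 2.63 FPKM at E10.5 and 19.7 ± 0.648 at E14.5. Their median log2 fold change was -0.055, and with E14.5 replicate 1 left out, 1 inhibitor fell.

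Genes that make ribosomes and splice RNA followed the same small shift. Of 25 ribosome biogenesis genes 24 were lower at an adjusted p under 0.05, with a median log2 fold change of -0.79. Fbl, Rrp12 and Gar1, of the nucleolar particles that modify and process ribosomal RNA, fell past the fold minimum, and none of the 3 did so without E14.5 replicate 1, whereas 5 members fell without replicate 2. Npm1, the main nucleolar protein, was measured at 1080.5, 1075 and 1269 FPKM at E10.5 and 556, 661 and 559 at E14.5 (log2 fold change -0.96, SE 0.11, edgeR adjusted p = 3.21e-05). Of 39 splicing factors 34 were lower and 1 was higher at an adjusted p under 0.05, none passed the fold minimum (1 without E14.5 replicate 2), and the median log2 fold change was -0.62. Hnrnpa1 was measured at 584, 621 and 708 FPKM at E10.5 and 395, 452 and 399 at E14.5 (log2 fold change -0.64, SE 0.098, edgeR adjusted p = 0.000295). The cytosolic ribosomal proteins, whose pseudogene copies make single values uncertain, were near all genes, with 23 of 74 lower at an adjusted p under 0.05 (27.5% of all tested genes), a median log2 fold change of -0.19 and a single gene called, Rpl39l, which rose. In the respiratory chain 35 of 88 were lower at that p, the median was -0.18, and Ndufa4l2 rose and Ndufaf5 fell in the test on all samples, with neither called without E14.5 replicate 1 or without E10.5 replicate 3, and Ndufa4l2 not without E10.5 replicate 1 or 2.

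Metabolic genes shifted in parts. Of 23 genes of glycolysis and the hypoxia response 1 rose (Aldoc) and 1 fell (Eno1), both below the shares of all tested genes (13.6% and 7.97%). The counts were 1 and 3 without E14.5 replicate 1, and 3 rose without replicate 2. At an adjusted p under 0.05 with any fold, 4 were higher and 10 lower, against 28.9% and 27.5% of all tested genes. The median log2 fold change was -0.24. Their summed level was 6354, 6521 and 7031 FPKM at E10.5 and 3957, 3687 and 3821 at E14.5. Eno1 was measured at 921, 976 and 1058 FPKM at E10.5 and 433, 418 and 430.1 at E14.5 (log2 fold change -1.22, SE 0.094, edgeR adjusted p = 2.82e-06), and Gapdh at 2401, 2437 and 2673 FPKM at E10.5 and 1171, 1412 and 1344 at E14.5, just under the fold minimum (log2 fold change -0.95, SE 0.10, edgeR adjusted p = 3.29e-05). In cholesterol synthesis 19 of 21 genes were lower at an adjusted p under 0.05 (27.5% of all tested genes) and 5 fell past the fold minimum, with a median log2 fold change of -0.88 (4 fell without E14.5 replicate 1 and 8 without replicate 3). Fdps, which makes farnesyl diphosphate, was measured at 111, 98.99 and 112 FPKM at E10.5 and 48.1, 42.9 and 42.2 at E14.5 (log2 fold change -1.28, SE 0.09, edgeR adjusted p = 1.45e-06). Of 30 lysosomal genes 26 were higher at an adjusted p under 0.05 (28.9% of all tested genes were) and 5 rose past the fold minimum, a share near the 13.6% of all (8 without E14.5 replicate 2), with a median log2 fold change of 0.51. The steepest were cathepsins. Ctsk, which degrades collagen, was measured at 3.79, 4.65 and 4.24 FPKM at E10.5 and 187, 85.5 and 90.2 at E14.5 (log2 fold change 4.82, SE 0.31, edgeR adjusted p = 7.55e-07). Ctsh was measured at 1.79, 2.25 and 1.96 FPKM at E10.5 and 79.9, 27.1 and 30.7 at E14.5 (log2 fold change 4.49, SE 0.44, edgeR adjusted p = 1.39e-05), with a fold of 22.5 that was 14.3 without E14.5 replicate 1. Ctsl and the membrane protein Cd63 rose 3.67 and 2.96 times.

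Antioxidant and detoxifying enzymes had 3 members that rose and 2 that fell of 22, near the shares of all tested genes (13.6% and 7.97%), against 2 and 2 without E14.5 replicate 1, with a median log2 fold change of -0.0098. Aldh3a1, the aldehyde dehydrogenase that is a crystallin of the adult cornea, was measured at 0.07, 0 and 0 FPKM at E10.5 and 24.1, 2.51 and 5.58 at E14.5 (log2 fold change 8.35, SE 1.45, edgeR adjusted p = 0.00065). Its fold was 326, 124 without E14.5 replicate 1 and 1155 without E10.5 replicate 1, the only pNC sample that listed it. Gsta4, a glutathione transferase, fell from 59.5 ± 7.67 to 14.3 ± 5.49 FPKM (SD, n = 3). Retinoic acid, made by eye tissues from vitamin A, controls crest cells around the eye. Of 21 tested genes of its pathway 4 rose and 5 fell, with or without E14.5 replicate 1, and the median log2 fold change was 0.15. Crabp1, which binds retinoic acid in the cytoplasm, was measured at 472, 409.5 and 639.6 FPKM at E10.5 and 260.5, 79.1 and 95.7 at E14.5 (log2 fold change -1.83, SE 0.37, edgeR adjusted p = 0.00168). E14.5 replicate 1 was the highest cornea, and the fall was 3.54 times with it and 5.82 times without it. Crabp2 was measured at 236, 239 and 295 FPKM at E10.5 and 116, 95.6 and 88.8 at E14.5 (log2 fold change -1.37, SE 0.12, edgeR adjusted p = 5.67e-06), and Fabp5 fell 2.11 times. The genes that rose were Dhrs3 and Adh7, which act on retinol and retinal, Cyp26a1, which breaks retinoic acid down, and Adh1, an alcohol dehydrogenase listed in no pNC sample. Adh1 held 14.3, 1.79 and 2.44 FPKM at E14.5, at least 24.2-fold higher.

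**Figure D4:**
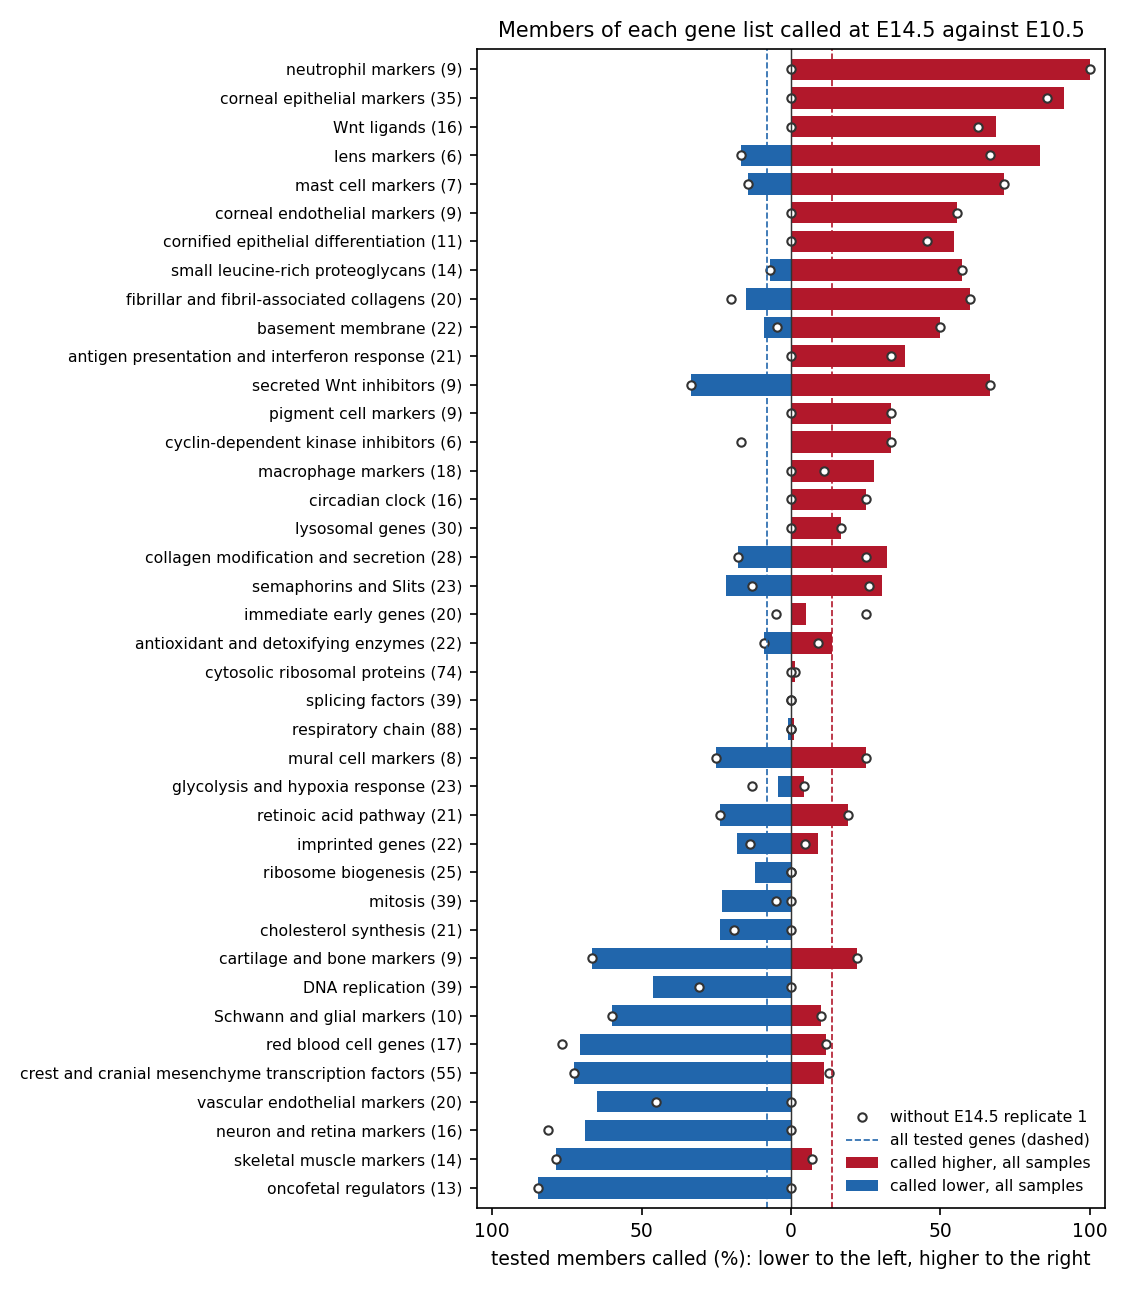
Share of the tested members of each gene list called higher (red, to the right) and lower (blue, to the left) at E14.5, in percent, with the number tested in brackets, circles for the counts without E14.5 replicate 1 and dashed lines at the shares of all tested genes (13.6% and 7.97%). Corneal epithelial markers (32 of 35) and oncofetal regulators (11 of 13) are near the ends, and mitosis shows a gap between bar and circle (9 against 2 of 39).

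Genes known from white blood cells were higher in the cornea. Of 13 neutrophil markers 9 passed the filter and 9 rose, with or without E14.5 replicate 1. All of these but Mpo and Prtn3 were under 1 FPKM in every pNC sample and passed the filter by their levels in the corneas, so this count had little room to differ. Their summed level was 6.24, 6.25 and 6.31 FPKM at E10.5 and 377, 298 and 228 at E14.5. S100a8, which forms with S100a9 the main cytosolic protein of neutrophils, was measured at 0.31, 0.3 and 0 FPKM at E10.5 and 115, 106 and 73.4 at E14.5 (log2 fold change 8.62, SE 0.49, edgeR adjusted p = 3.82e-07). S100a9 was measured at 0, 0.96 and 0.25 FPKM at E10.5 and 136, 98.95 and 57.5 at E14.5, a fold of 220.0 that was 620.4 without E10.5 replicate 2. The granule peptide Camp was measured at 0, 0 and 0.2 FPKM at E10.5 and 39.7, 25.4 and 14.49 at E14.5, with a fold of 289, or 1029 without E10.5 replicate 3. Lcn2, listed in no pNC sample, held 20.7, 7.94 and 5.26 FPKM and was at least 27.6-fold higher. Stfa3 and Stfa2l1, cysteine protease inhibitors from a family of near-identical genes and therefore uncertain, were at least 12.8- and 10.4-fold higher. Keratinocytes also make S100a8, S100a9, Lcn2 and Camp, and the part of each cell type was not tested.

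Of 10 mast cell markers 7 were tested, 5 rose and 1 fell, with or without E14.5 replicate 1. The 5 that rose were under 1 FPKM in every pNC sample and passed the filter by their levels in the corneas, so their count had little room to differ. Their summed level was 25.9, 24.2 and 21.9 FPKM at E10.5 and 140.5, 36.1 and 34.7 at E14.5, so replicate 1 stood far above the other corneas. Cpa3, a granule protease, was measured at 0.31, 0.15 and 0.31 FPKM at E10.5 and 43.7, 13.4 and 14.1 at E14.5 (log2 fold change 6.45, SE 0.66, edgeR adjusted p = 2.02e-05), and the chymase Cma1 at 0, 0 and 0.11 FPKM at E10.5 and 43.6, 8.2 and 8.19 at E14.5 (log2 fold change 8.67, SE 1.29, edgeR adjusted p = 0.000239). Their folds were 87.6 and 407, and 51.4 and 168 without E14.5 replicate 1. Cma1 gave 1447 without E10.5 replicate 3. Tpsb2, a tryptase with near-identical relatives, was listed in no pNC sample, held 32.3, 2.87 and 1.47 FPKM at E14.5 and was at least 38.3-fold higher. Gata2, a factor of mast cells that other tissues also make, fell from 16.9 ± 1.32 to 1.96 ± 0.251 FPKM (SD, n = 3). The median log2 fold change of the tested members was 5.78, or 4.32 with those not listed at E10.5 at their bound. For the neutrophil markers it was 7.78, or 7.67.

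Macrophage markers were present at both stages. Of 18 tested, 5 rose and none fell (all tested genes 13.6% and 7.97%), and 2 rose without E14.5 replicate 1. Their median log2 fold change was 0.73. The summed level was 107, 115 and 98.3 FPKM at E10.5 and 241, 182 and 161 at E14.5. Lyz2, the lysozyme of macrophages and neutrophils, was measured at 7.88, 7.98 and 9.18 FPKM at E10.5 and 50.3, 35.4 and 18.1 at E14.5 (log2 fold change 2.03, SE 0.30, edgeR adjusted p = 0.000236), and the mannose receptor Mrc1 at 3.73, 4.64 and 3.54 FPKM at E10.5 and 13.01, 8.16 and 9.24 at E14.5 (log2 fold change 1.34, SE 0.17, edgeR adjusted p = 8.97e-05). The complement genes C1qb and C1qc, made by tissue macrophages, were not called, with log2 fold changes of 0.49 and 0.75. In the list of antigen presentation and interferon response 8 of 21 tested rose and none fell (7 without E14.5 replicate 1, and 1 fell without E14.5 replicate 3), with a median log2 fold change of 0.75. Ifitm1 was measured at 2.75, 1.62 and 2.10 FPKM at E10.5 and 42.99, 13.4 and 14.3 at E14.5, with a fold of 10.47, or 6.22 without E14.5 replicate 1, and Ifitm2 rose from 128 ± 7.04 to 293 ± 41.04 FPKM (SD, n = 3). Ifi27 rose 6.57 times. These genes have near-identical relatives and are uncertain. B2m, the light chain of class I molecules, was measured at 69.7, 71.9 and 70.1 FPKM at E10.5 and 86.4, 65.02 and 61.8 at E14.5 (log2 fold change -0.0058, SE 0.11, edgeR adjusted p = 0.972).

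**Figure D5:**
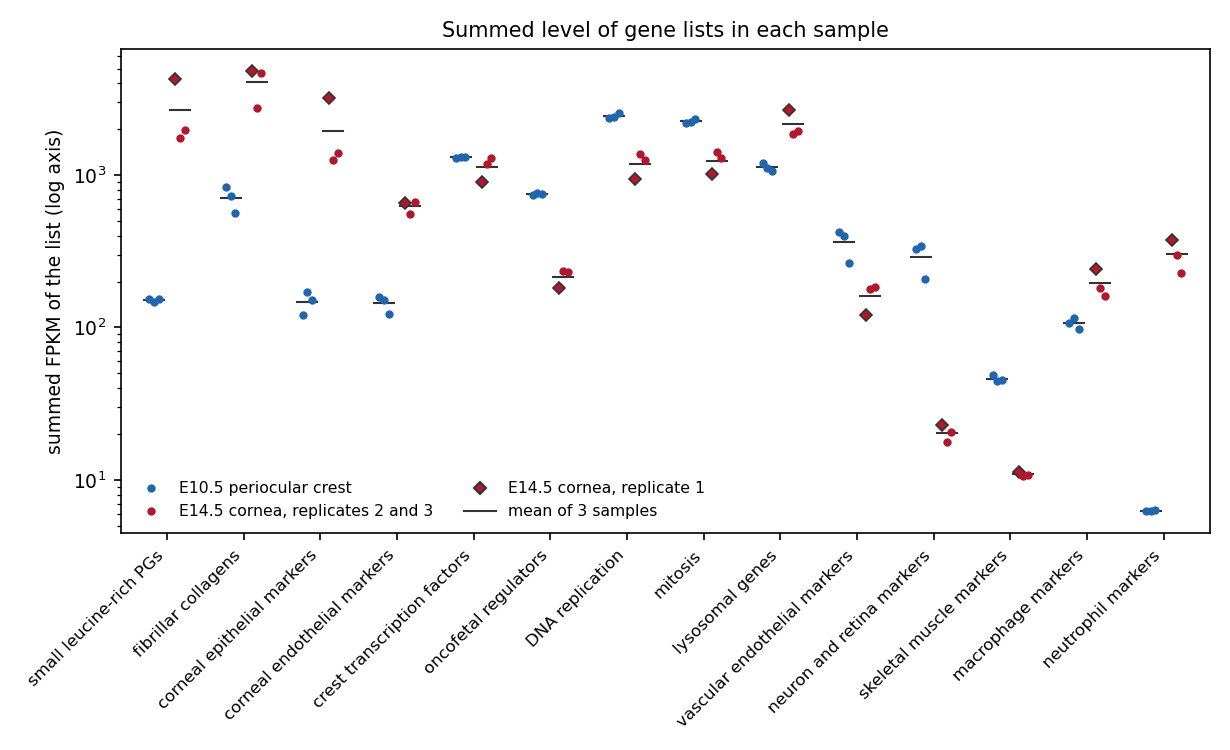
Summed FPKM of the listed members of 14 gene lists in each sample, on a log axis, with E10.5 in blue, E14.5 in red, E14.5 replicate 1 as a diamond and a bar at the mean of 3 samples. Replicate 1 is the highest cornea for the proteoglycans and the neutrophil markers and the lowest for DNA replication and vascular endothelial markers, while the crest transcription factors overlap between stages.

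Immediate early genes, which answer within minutes to growth factors or handling of tissue, overlapped between stages and differed widely within them. Their summed level was 709, 546 and 195 FPKM at E10.5 and 163, 468 and 1339 at E14.5. Fos was measured at 92.8, 69.1 and 7.43 FPKM at E10.5 and 5.63, 72.9 and 316 at E14.5 (log2 fold change 1.23, SE 1.04, edgeR adjusted p = 0.336) and Egr1 at 44.7, 36.9 and 4.59 FPKM at E10.5 and 6.24, 113 and 332 at E14.5 (log2 fold change 2.40, SE 1.04, edgeR adjusted p = 0.0704), so that both were lowest in E10.5 replicate 3 and E14.5 replicate 1 within their stages. Of 20 tested, with a median log2 fold change of 0.26, 1 was called, Ier3, with 2.60, 3.09 and 0.95 FPKM at E10.5 and 11.8, 10.8 and 22.9 at E14.5 (log2 fold change 2.76, SE 0.41, edgeR adjusted p = 0.000233). Without E14.5 replicate 1, 5 rose and 1 fell, and Fos and Egr1 were among the former, with log2 fold changes of 1.80 (edgeR adjusted p = 0.0443) and 2.96 (edgeR adjusted p = 0.00151). Without E14.5 replicate 3, 5 fell, and without E10.5 replicate 3, 3 fell. The part of tissue handling in these values was not tested.

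Of 22 tested imprinted genes, which are expressed from a single parental copy, 2 rose and 4 fell (all tested genes 13.6% and 7.97%). Their median log2 fold change was -0.023. Peg10, derived from a retrotransposon, was measured at 72.2, 63.2 and 61.5 FPKM at E10.5 and 3.75, 11.01 and 11.4 at E14.5 (log2 fold change -2.92, SE 0.34, edgeR adjusted p = 4.81e-05). H19 was measured at 755, 802 and 728 FPKM at E10.5 and 1496, 1421 and 1402 at E14.5 and stayed under the fold minimum (log2 fold change 0.90, SE 0.098, edgeR adjusted p = 2.80e-05), while Nnat and Gnas had log2 fold changes of -0.63 and -0.16. With E14.5 replicate 1 left out, 1 rose and 3 fell, and Meg3 and Snrpn were no longer called. Of 16 circadian clock genes 4 rose and none fell (2 rose without E10.5 replicate 3), with a median log2 fold change of 0.58, led by Hlf with 0.39, 0.52 and 0.55 FPKM at E10.5 and 13.4, 5.72 and 5.89 at E14.5 (log2 fold change 4.07, SE 0.37, edgeR adjusted p = 8.98e-06). Cry1, Cry2 and Tef were not called.

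Most markers of the lens, which lies next to the cornea, were too low to be tested. Of 23 lens markers 20 were listed but only 6 passed the filter, of which 5 rose and 1 fell, with a median log2 fold change of 2.08 (4 and 2 without E14.5 replicate 1, 3 that fell without E10.5 replicate 3, where other members passed the filter). Cryab, a small heat shock protein that is not limited to the lens, was measured at 3.14, 3.68 and 0.97 FPKM at E10.5 and 39.4, 24.9 and 23.2 at E14.5 (log2 fold change 3.46, SE 0.32, edgeR adjusted p = 1.03e-05). Crybb1, which is largely of the lens, was measured at 0.39, 0.39 and 0.13 FPKM at E10.5 and 1.47, 1.60 and 1.58 at E14.5 (log2 fold change 2.27, SE 0.50, edgeR adjusted p = 0.00285), and Bfsp2, of the lens fiber skeleton, at 0.14, 0.28 and 0.07 FPKM at E10.5 and 1.32, 2.92 and 2.59 at E14.5 (log2 fold change 3.68, SE 0.50, edgeR adjusted p = 0.000134). Both were low in every cornea. They were also under 1 FPKM in every pNC sample, so their part of the count had little room to differ. Of 9 tested pigment cell markers 3 rose and none fell, with or without E14.5 replicate 1, with a median log2 fold change of 0.57. Dct was measured at 7.76, 6.82 and 6.76 FPKM at E10.5 and 10.3, 27.2 and 25.6 at E14.5 (log2 fold change 1.55, SE 0.31, edgeR adjusted p = 0.00172), while Tyr and Pmel were not called, with 16, 14.9 and 19.4 FPKM at E10.5 and 22.8, 15.9 and 18.4 at E14.5 for Tyr and 27.4, 21.96 and 19.3 FPKM at E10.5 and 20.6, 27.6 and 54.1 at E14.5 for Pmel.

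Genes found at a single stage were few and mostly faint. In all corneas and no pNC sample 130 genes were listed, of which 34 had a mean of at least 1 FPKM and 7 of at least 5. In all pNC samples and no cornea these numbers were 152, 43 and 9. With 1 sample left out, which asks the condition of fewer samples, the counts were 171 to 214 and 193 to 220. The first was 205 without E10.5 replicate 1, 214 without E10.5 replicate 2, 208 without E14.5 replicate 2 and 206 without E14.5 replicate 3. The most abundant of the former were Tpsb2, Stfa3, Lcn2, Stfa2l1 and Adh1, and of the latter Barx1, Stmn3, Ebf2, Snord14d and Neurod1. Snord14d, a small nucleolar RNA listed at 8.59, 8.51 and 15.3 FPKM at E10.5, did not pass the filter on counts and was not tested.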

How the data were processed

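The authors mapped reads with Bowtie2 and HISAT (GRCm38) and quantified genes with RSEM (versions not given in the sources used here), and deposited, for each gene listed above 0 in a sample, its expected count and its FPKM. A gene absent from a sample was taken as 0. RefSeq gave symbols for 19312 of 19369 identifiers. Totals were 8773677 to 9069023 expected counts per sample in the 6 samples compared. Taken over genes together, replicates differed by more than sampling noise. For genes with few counts at 1 stage, the part of counting error in their folds was not tested. The floor of 3 counts per library, used for genes listed at only 1 stage, covers counting error only.

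Expected counts were rounded, filtered with filterByExpr by stage, scaled with TMM and fitted with edgeR 4.0.16 (quasi-likelihood, R 4.3.3), all 9 samples in 1 model of stage without covariates. A call needed a Benjamini-Hochberg adjusted p under 0.05 over all tested genes and a log2 fold change of 1 or more in either direction. The SE given with a log2 fold change is its absolute value divided by the square root of the F statistic of that test. It was not estimated from the 6 compared samples alone and also rests on the spread of the E16.5 corneas. Alternatives used limma 3.58.1 on log2(FPKM + 1) and log2(FPKM + 0.1), DESeq2 1.42.0, other scalings, the 6 samples alone, and each sample left out. Samples of the same replicate number did not deviate alike from their stage means (correlations −0.114, −0.086 and −0.227). With 3 samples per stage these values are few and not independent, and a shared batch was not tested.

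Gene lists and the comparison itself were chosen with earlier results of these data known. Named are, per direction, the 12 called genes with the largest difference of mean FPKM and the 10 with the largest fold (at least 5 FPKM at the higher stage, at least 3 mean counts at the lower, no overlap of stages), per list the 3 most abundant members and the 2 steepest called ones, and the 5 most abundant genes of a single stage. List members named without values, and the genes of the closing part, were chosen after their values were seen. Some genes that this rule names are not reported here.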

Additional observations from a re-analysis of the deposited data

How the results depend on the processing

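The numbers of genes called higher and lower kept within 1.5 times of 2014 and 1177 when the 6 samples were fitted alone (1854 and 1143), with DESeq2 (1961 and 1179), with DESeq2 size factors in edgeR (1978 and 1214), with library totals in place of TMM (2040 and 1155), without the filter on low counts (2179 and 1384), and with limma on log2(FPKM + 0.1) (1947 and 1144). With each sample left out in turn they ran from 1864 to 2135 and from 1121 to 1341. They moved further with limma on log2(FPKM + 1) (1286 and 736), with a log2 fold minimum of 2 (952 and 476) and with no fold minimum (4273 and 4055). A replicate block gave 1985 and 1182, and since samples of the same number did not deviate alike this is given once. Genes listed in every cornea and no pNC sample numbered 34, and the reverse 43, when a mean of at least 1 FPKM was asked, and with a sample left out 171 to 214 and 193 to 220. Measured in expected counts in place of FPKM, genes that rose held 3.25% at E10.5 and 14.7% at E14.5 on average, and genes that fell held 7.90% at E10.5.

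Of 2589 values of the 185 genes named by the rule and tested under an alternative, 2552 stayed called or stayed not called. The call was lost in 21 and gained in 16. No called gene changed direction, and no call was gained against the direction of the main fit. For genes called in neither fit, direction was not compared. Calls were lost under at least 1 alternative by 11 of the 137 genes named by the rule that were called. Those that lost it without E14.5 replicate 1 were Tubb5, Stmn1, Fbl, Rrp12, Gar1, Acat2 and Ndufaf5. Of genes named outside the rule, Col4a4, Meg3, Ndufa4l2, Sema3d, Sema3g, Slc4a11 and Snrpn also lost it there. DESeq2 gave no adjusted p for 9 genes, Kera among them. The share of motifs and CpG in promoters of called genes was planned but not run, because promoters were matched for 74.6% of the genes called higher and 72.5% of those called lower, under the 80% asked. The spread between corneas was larger than between pNC samples (common dispersion 0.0396 against 0.0113), and the shared model takes a single trend for both.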

Other observations

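Gene families outside the lists, grouped by the stem of their symbol and described after their values were seen, also moved. Of 21 tested genes of the protocadherin beta cluster, whose cell surface proteins give neurons their identity, 20 rose, with or without E14.5 replicate 1, and the median log2 fold change was 2.39. All were low, the highest mean at E14.5 being 4.44 FPKM, and near-identical members make single genes uncertain. Of 22 tested genes of the neighbouring gamma cluster 3 rose, with a median of 0.16, a share near the 13.6% of all tested genes. Annexins, which bind membranes in the presence of calcium, rose in 7 of 10. Anxa1 was measured at 1.05, 1.36 and 0.49 FPKM at E10.5 and 123, 58.3 and 53.04 at E14.5, whereas Anxa3 was not called, with 19.6, 22.2 and 17.96 FPKM at E10.5 and 19.6, 15.1 and 15.5 at E14.5. Among families that fell were voltage-gated sodium channels (Scn, 8 of 13 fell and 2 rose), Sox factors (12 of 20 fell and 2 rose) and T-box factors (6 of 10 fell and 2 rose). Of all tested genes 7.97% fell. These families were picked out of 179 with at least 10 tested genes.

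Of 585 tested long noncoding RNAs 101 rose and 31 fell, against 13.6% and 7.97% of all tested genes. C130021I20Rik was measured at 9.33, 9.70 and 7.94 FPKM at E10.5 and 81.7, 94.9 and 119 at E14.5, and Pantr1, which lies beside the neural factor Pou3f3, at 0.82, 0.81 and 0.63 FPKM at E10.5 and 29.7, 19.9 and 18.6 at E14.5. Foxl2os, transcribed next to the gene of the eyelid factor Foxl2, was measured at 33.1, 39.9 and 55.4 FPKM at E10.5 and 1.02, 2.04 and 0.92 at E14.5, and Miat at 23.5, 23.8 and 12.8 FPKM at E10.5 and 3.46, 1.76 and 2.20 at E14.5. Strand was not stated for the counting, so reads of overlapping partners cannot be told apart. Meg3 was measured at 126, 123 and 108 FPKM at E10.5 and 500.2, 222 and 223 at E14.5 and was called with E14.5 replicate 1 only, with a log2 fold change of 1.32 with it and 0.85 without it.

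Xist was at 0.20 FPKM in E14.5 replicate 3 and at 29.1 to 116.7 in the other 8 samples of the series. The Y-linked Ddx3y was measured at 8.12, 2.25 and 9.28 FPKM at E10.5 and 12.1, 13.6 and 19.8 at E14.5 and was called higher at E14.5 (log2 fold change 1.20, SE 0.43, edgeR adjusted p = 0.0348). The other Y-linked genes tested, Eif2s3y, Kdm5d, Uba1y and Uty, were not called, with log2 fold changes of 0.71, 0.55, 0.18 and 1.001 (edgeR adjusted p = 0.208, 0.311, 0.523 and 0.0554). The mix of female and male embryos in the pools is not given in the labels, and its part in other results was not tested.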
